A study of Mus musculus with 6 samples.

Results

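The transcripts examined here encode the proton pump of the lysosome, its hydrolases and its membrane proteins, in bone marrow-derived macrophages with and without a knockout of Dhps, the gene of deoxyhypusine synthase. The members were all genes of the deposited table whose symbol starts with Atp6v, the subunits of the vacuolar ATPase (V-ATPase), together with 27 named lysosomal genes. All 27 named genes and 14 V-ATPase genes were measured, which gave 41 members among 10551 genes. They fall into 14 V-ATPase subunits, 17 hydrolases and hydrolase cofactors, 7 membrane proteins and 3 transcription factors.

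Knockout macrophages, 3 libraries, came from mice whose knockout is described as macrophage-specific and labelled Dhps_delta_Myel, and they were compared with 3 libraries of control macrophages. All mice were of strain C57BL/6J. The sources used here do not give the driver of the deletion, the control genotype, the age of the mice or any stimulus of the cells. Nor do they tie each library to its own animal or culture, so the p-values measure only the spread between these libraries, which may be technical.

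Lysosomes break down material taken up by phagocytosis or delivered by autophagy. The V-ATPase keeps their lumen acidic: its V1 sector in the cytosol splits ATP, and its V0 sector in the membrane moves protons. Cathepsins (proteases), glycosidases and lipid hydrolases work in that acid lumen, and heavily glycosylated proteins such as LAMP1 and LAMP2 line the membrane. TFEB, TFE3 and MITF are related transcription factors that bind E-box sequences, and many lysosomal genes carry such a sequence near their start.

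The E-boxes of these genes are shown first, as a sequence feature of part of the members. The members are named lysosomal genes, with Tfeb, Tfe3 and Mitf among them. Their choice may therefore not be independent of this sequence. Windows from 250 bases before to 50 bases after each RefSeq start site (build GRCm38.p6, the assembly also called mm10) were searched for the 6-base E-box CACGTG and for its 8-base extension TCACGTGA. Both read the same on either strand, and each 8-base match contains a 6-base match. 32 of the 41 members had at least 1 window. Of these 32 genes, 13 (40.6%) held the 6-base E-box, against 993 of 8086 genes of the deposited table with a window (12.3%) and 2187 of 27025 genes of the whole RefSeq table (8.09%). The 8-base form was found in 7 of the 32 members (21.9%), against 191 of the 8086 genes (2.36%) and 304 of the 27025 genes (1.12%). The members with the 8-base form were Atp6v0d1, Atp6v0e and Atp6v1a of the pump, the cathepsin genes Ctsa and Ctsd, the galactosidase gene Gla and the channel gene Mcoln1. By window rather than by gene, the 8-base form stood in 17.9% of 39 windows of members. It stood in 1.93% of 10331 windows of genes of the deposited table and in 0.974% of all 32851 windows. A match is a description of the letters and not a shown binding site.

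**Figure D1:**
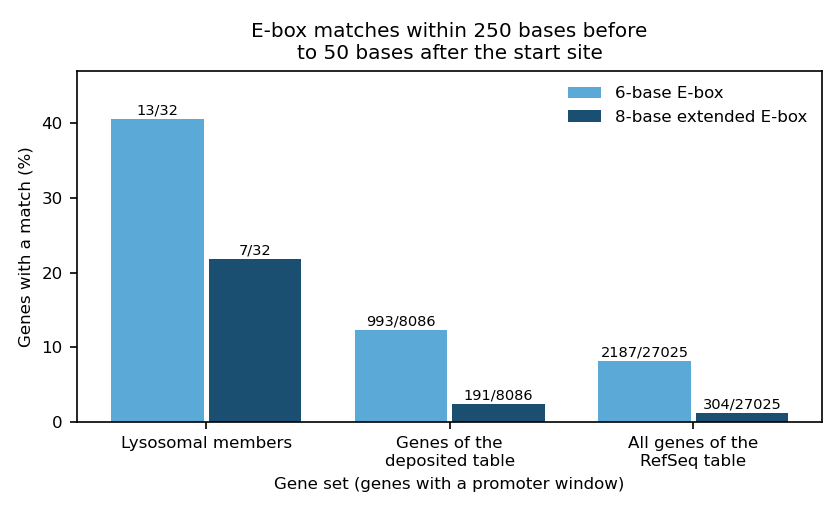
Share of genes (percent, vertical axis) whose promoter window holds the 6-base or the 8-base E-box, for the lysosomal members, the genes of the deposited table and all genes of the RefSeq table, with the counts above the bars. The bars of the members reach 40.6% and 21.9%, against 12.3% and 2.36% for the genes of the deposited table.

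The 8-base match of each of these 7 genes is printed with 16 bases on either side, 5′ to 3′ on the strand of the gene, to show where the E-box lies. Capitals mark the 8-base match. The number in brackets is the position of its first base, counted from the start site, with minus for bases before it. Ctsa and Gla each held 2 matches. Those of Ctsa belong to a second start site that RefSeq lists for this gene.
Atp6v0d1 (chr8:105566045-105566084, minus strand, -4): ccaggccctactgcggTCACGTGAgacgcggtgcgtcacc
Atp6v0e (chr17:26676382-26676421, plus strand, 3): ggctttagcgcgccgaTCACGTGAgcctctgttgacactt
Atp6v1a (chr16:44139368-44139407, minus strand, -132): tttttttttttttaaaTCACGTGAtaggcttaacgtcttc
Ctsa (chr2:164833744-164833783, plus strand, -13): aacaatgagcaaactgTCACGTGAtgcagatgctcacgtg
Ctsa (chr2:164833761-164833800, plus strand, 5): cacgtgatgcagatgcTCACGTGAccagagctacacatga
Ctsd (chr7:142387903-142387942, minus strand, -99): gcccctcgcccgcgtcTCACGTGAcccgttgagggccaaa
Gla (chrX:134601210-134601249, minus strand, -228): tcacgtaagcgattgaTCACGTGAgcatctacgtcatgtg
Gla (chrX:134601177-134601216, minus strand, -195): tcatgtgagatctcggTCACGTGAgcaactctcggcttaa
Mcoln1 (chr8:3500457-3500496, plus strand, -46): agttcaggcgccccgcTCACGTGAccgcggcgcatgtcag

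Libraries held 12960793 to 16224818 counts in the knockout group and 11648710 to 15382816 in the control group. Levels are given as normalized CPM, which are counts per 1000000 counts of the library after scaling by the trimmed mean of M values, and fold changes are knockout over control on the log2 scale. Dhps itself lay at 13.2, 13.6 and 18.3 CPM in knockout libraries, against 24.1, 20.9 and 23.4 CPM in control libraries (log2 fold change -0.59, adjusted p = 0.214 in edgeR's quasi-likelihood test). For the labelled cell type, Csf1r and Adgre1 are given here, from 12 measured macrophage markers. Csf1r, the receptor for the growth factor M-CSF, averaged 1003 ± 92.8 CPM in knockout and 1093 ± 81.5 CPM in control libraries (SD, n = 3 each). Adgre1, which encodes the surface antigen F4/80, averaged 1338 ± 99.3 CPM in knockout and 1512 ± 54.4 CPM in control libraries (SD, n = 3 each). Of the 12 markers, 6, with Adgre1 among them, were lower in each knockout library than in each control library. Over all genes, 11.2% showed no overlap in either direction.

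Lysosomal genes were a large share of the RNA of these macrophages. The 41 members together took 7.44%, 7.79% and 7.33% of all counts in knockout libraries 1 to 3, against 7.78%, 7.19% and 7.30% in control libraries 1 to 3. The ranges of the groups overlapped. Ctsd, Psap and Ctsb alone made up between 65.6% and 68.1% of the members' CPM in each library. To compare genes with each other, CPM was divided by the summed exon length in kilobases. On this per-length scale, Ctsd, which encodes the aspartic protease cathepsin D, had a level of 9380 ± 474 CPM per kb in knockout and 9761 ± 259 CPM per kb in control libraries (SD, n = 3 each). Psap, the precursor of the saposins that help enzymes reach sphingolipids, followed with 6232 ± 367 and 6165 ± 794 CPM per kb. The cysteine protease genes came next, Ctsl with 4408 ± 128 and 3970.2 ± 519 CPM per kb and Ctsb with 2963 ± 174 and 3099 ± 138 CPM per kb. In per-length level Ctsd lay above 99.97% of all genes measured and Lamp1 above 99.3%. At the other end stood Tfeb, with 1.66 ± 0.355 CPM per kb in knockout and 1.80 ± 0.217 CPM per kb in control libraries, above only 20.5% of all genes. Mitf was the most abundant of the 3 factors, with 53.1 ± 2.61 and 53.8 ± 5.33 CPM per kb, and Tfe3 lay between them with 14.5 ± 0.948 and 13.1 ± 0.896 CPM per kb.

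**Figure D2:**
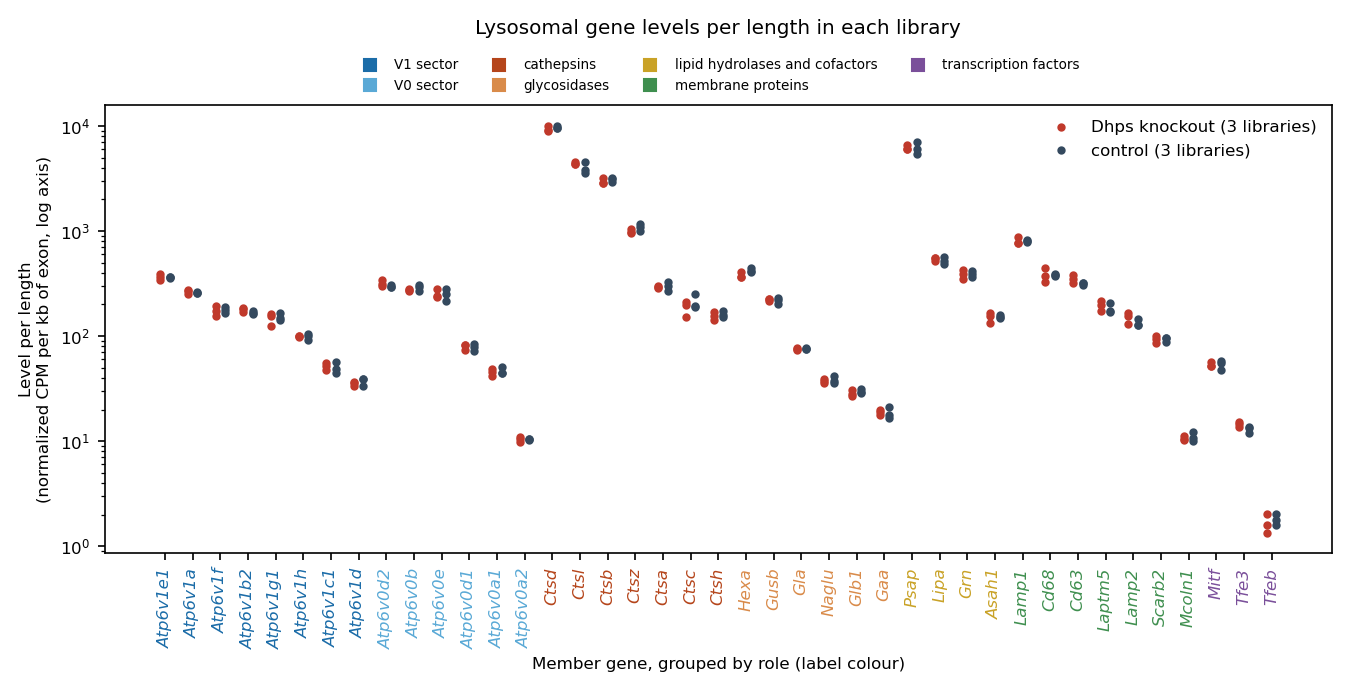
Level per length (normalized CPM per kilobase of exon, log axis) of the 41 members in each of the 6 libraries, with knockout points left of control points and gene labels coloured by role. Levels span from Tfeb, with means of 1.66 CPM per kb in knockout and 1.80 CPM per kb in control libraries, to Ctsd, with 9380 and 9761 CPM per kb.

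No member was called changed. In edgeR's quasi-likelihood test over all 10551 genes, 0 of the 41 members passed an adjusted p of 0.05, where 11 of all genes (0.104%) did. At an unadjusted p under 0.05 the count was also 0 of 41, where 684 of all genes (6.48%) passed. DESeq2 called 0 of the 41 members (22 of all genes, 0.209%), and limma-voom called 0 (8 of all genes, 0.0758%). The members' adjusted p in edgeR ran from 0.827 to 0.999. Log2 fold changes ran from -0.17 (Ctsc) to 0.16 (Cd63), 20 above 0 and 21 below, with a median of -0.0084, against -0.0044 over all genes tested. The knockout libraries did not overlap the control libraries for 1 member (2.44%), Hexa, where 11.2% of all genes showed no overlap. A p that misses the threshold does not show that levels were equal, so 95% intervals are given for the fold changes. They rest on the same spread between libraries and are not adjusted for the number of genes. If that spread is technical, they do not bound the effect of the genotype.

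The intervals of most members were narrow. The standard error (SE) of the log2 fold change had a median of 0.092 over the members and 0.13 over all genes. For 40 of 41 members the 95% interval lay within a 1.5-fold change either way, and the highest upper bound was 1.29-fold (Lamp2). The exception was Tfeb, at 5.78, 4.49 and 3.80 CPM in knockout and 4.50, 5.72 and 5.04 CPM in control libraries, whose interval ran from 0.665-fold to 1.27-fold (log2 fold change -0.12, SE 0.22, adjusted p = 0.972). For scale, Lyz2, which encodes lysozyme M and is not a member, had 8060.2, 9462 and 8774 CPM in knockout and 16267, 19080.0 and 18770 CPM in control libraries. It fell to 0.486-fold, with an interval from 0.422-fold to 0.560-fold (adjusted p = 7.24e-05 in edgeR's quasi-likelihood test). That interval lies below the lower bound of each of the 41 members, of which the lowest was that of Tfeb. The Lyz2 locus carries Cre in a widely used mouse line for deletion in myeloid cells, and whether that line was used here is not known from the labels.

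**Figure D3:**
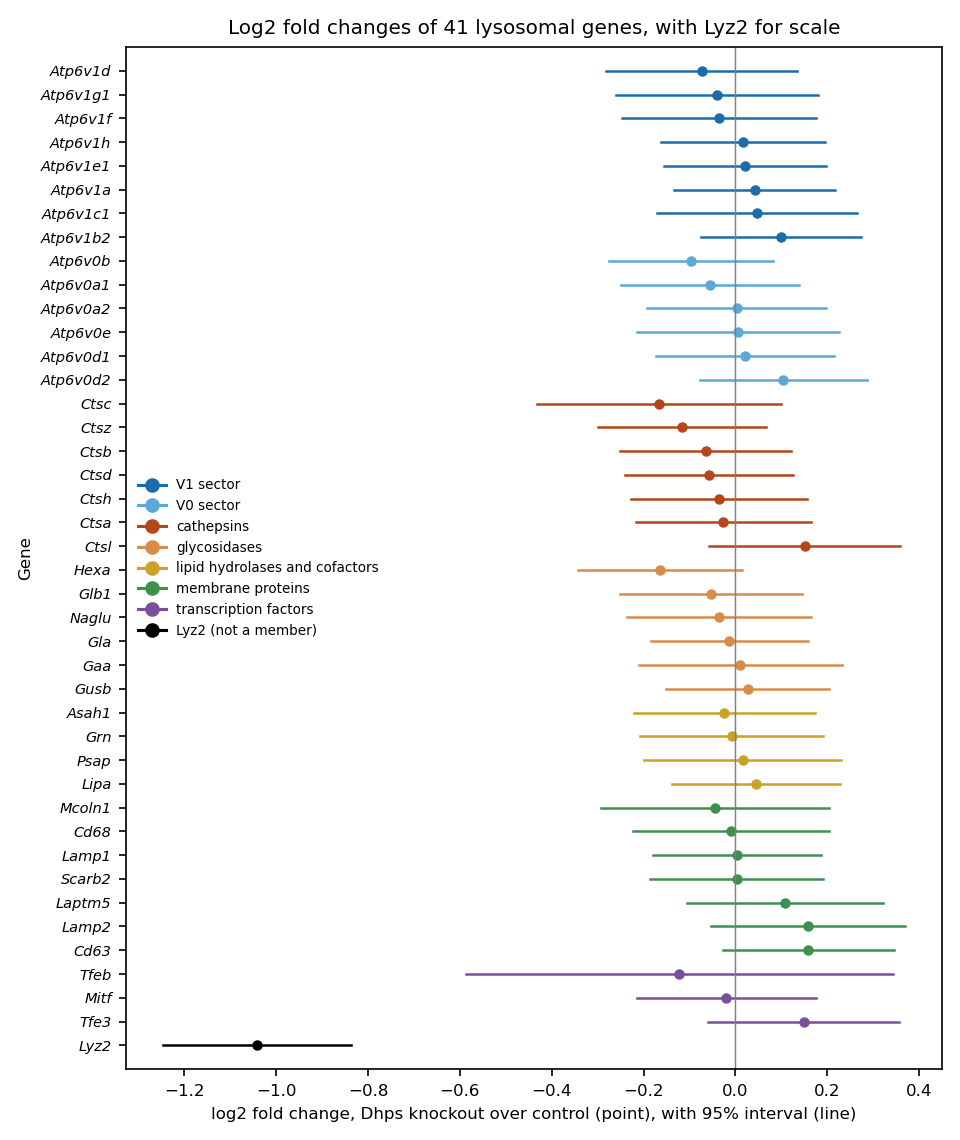
Log2 fold change of each member, knockout over control (horizontal axis), as a point with its 95% interval as a line, ordered by role, with Lyz2 in black for scale. Each member's interval includes 0 and none reaches the interval of Lyz2.

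Among the 14 V-ATPase genes 9 log2 fold changes were above 0 and 5 below, with a median of 0.011. In the V1 sector, the catalytic subunit gene Atp6v1a had 988, 1095 and 1064 CPM in knockout libraries and 1009, 1013 and 1033 CPM in control libraries, 0.042 on the log2 scale (SE 0.083, adjusted p = 0.976). Knockout library 1 was the lowest of the 6 and knockout library 2 the highest. Atp6v1b2, the B subunit gene that pairs with it and the only B subunit gene measured, had 506, 492 and 469 CPM in knockout libraries and 477, 442 and 449.8 CPM in control libraries (0.10, SE 0.082, adjusted p = 0.908). Control library 1 lay inside the range of the knockout libraries. Atp6v1e1, a peripheral stalk subunit, was the most abundant V1 gene per length, and had 440.0, 413 and 468 CPM in knockout and 440.4, 435 and 427 CPM in control libraries (0.020, adjusted p = 0.991). Atp6v1d, a subunit of the central rotor, had 47.7, 50.8 and 51.0 CPM in knockout and 54.8, 55.2 and 47.1 CPM in control libraries (-0.073, adjusted p = 0.957). The remaining V1 genes, Atp6v1c1, Atp6v1f, Atp6v1g1 and Atp6v1h, had log2 fold changes of 0.047, -0.036, -0.040 and 0.016.

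In the V0 sector, Atp6v0d2 encodes a form of the d subunit that links V0 to the rotor and is known for its high level in osteoclasts and macrophages. It had 862, 791 and 745 CPM in knockout libraries and 730.1, 772 and 728 CPM in control libraries, 0.10 on the log2 scale (SE 0.086, adjusted p = 0.908). Control library 2 lay inside the knockout range. Its paralog Atp6v0d1, the form found in most tissues, had 132, 133 and 119.6 CPM in knockout and 127, 135 and 116 CPM in control libraries (0.021, adjusted p = 0.992). Per length, Atp6v0d2 therefore made up 80.9%, 79.3% and 80.1% of the d subunit transcripts in knockout libraries, against 78.8%, 78.7% and 80.2% in control libraries. The groups overlapped, and the means of 80.1 ± 0.768% in knockout and 79.2 ± 0.820% in control libraries differed by 0.888 percentage points, with p = 0.3 in a two-sided exact permutation test (SD, n = 3 each), where the design allows no p below 0.1. Atp6v0b, a proton-carrying subunit of the membrane ring, had 265, 273 and 278 CPM in knockout and 308, 270.2 and 294 CPM in control libraries (-0.097, SE 0.085, adjusted p = 0.910).

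Of the a subunit genes, which form the proton path and steer the pump to its compartment, Atp6v0a1 had 194, 185 and 167 CPM in knockout and 205, 181 and 181 CPM in control libraries (-0.055, adjusted p = 0.968), and Atp6v0a2 had a log2 fold change of 0.0030. Per length Atp6v0a1 stood at 45.1 ± 3.35 CPM per kb in knockout and 46.9 ± 3.49 in control libraries, and Atp6v0a2 at 10.4 ± 0.526 and 10.4 ± 0.0727 CPM per kb (SD, n = 3 each). Tcirg1, which encodes the a3 subunit but does not bear the Atp6v name, lay above both, at 91.4 CPM per kb in knockout and 100.4 CPM per kb in control libraries (log2 fold change -0.14, adjusted p = 0.885). Atp6v0e, a small membrane subunit, had a log2 fold change of 0.0064, and the ring subunit gene Atp6v0c was not analysed here. The member subunit genes ranged in per-length level from 10.4 CPM per kb for Atp6v0a2 to 366 CPM per kb in knockout and 361 CPM per kb in control libraries for Atp6v1e1. Since Atp6v0a2 is not the only a subunit gene, this range is over genes and does not compare the subunits of a complex.

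Summed over the 14 member subunit genes, V-ATPase transcripts made up 4275, 4252 and 4197 CPM in knockout libraries, against 4163, 4159 and 4109 CPM in control libraries. For this sum each knockout library lay above each control library, by 1.02-fold between the means. It leaves out Tcirg1, with 306, 305 and 295 CPM in knockout and 378, 292 and 326 CPM in control libraries. With Tcirg1 added, control library 1 lies above knockout library 3, so the order rests on the choice of genes. The sum of the 14 genes is led by the 3 with the highest CPM, Atp6v1a, Atp6v0d2 and Atp6v1b2. These held 54.3% of it and were 1.05-fold higher in the knockout mean, while the other 11 together were at 0.989-fold. No p is given for the sum, since its members were chosen with results of these data known.

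The 17 hydrolase and cofactor genes had 5 log2 fold changes above 0 and 12 below, with a median of -0.026. Of the 7 cathepsin genes, 6 lay below 0. Ctsl, a cysteine protease gene, was the exception, with 8964, 8467 and 8635 CPM in knockout libraries and 8988, 7425 and 7063 CPM in control libraries (0.15, SE 0.098, adjusted p = 0.870). Control libraries 2 and 3 were below the knockout libraries and control library 1 was above them. Ctsd had 17579, 19364 and 18042 CPM in knockout and 19649, 18871 and 18700.0 CPM in control libraries (-0.057, SE 0.086, adjusted p = 0.964), with knockout library 2 inside the control range. Ctsz, which trims proteins at their carboxyl end, had 1345, 1465 and 1373 CPM in knockout and 1612, 1514 and 1407 CPM in control libraries (-0.12, adjusted p = 0.899).

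Ctsc, which activates serine proteases of granules, scattered widely, with 379, 491 and 527 CPM in knockout and 477, 465 and 627 CPM in control libraries (-0.17, SE 0.13, adjusted p = 0.899). Knockout library 1 was the lowest and control library 3 the highest, and the log2 fold change was -0.035 without knockout library 1 and -0.017 without control library 3. Ctsb, Ctsh and Ctsa had log2 fold changes of -0.065, -0.036 and -0.026. Of the exon bases of Ctsd in the table, 41.4% are also annotated in Gm49369 on the same strand in GENCODE M21, and 22.6% of those of Ctsa and 16.3% of those of Ctsb lie in exons of other genes, chiefly Pltp and Fdft1 on the opposite strand. The sources used here do not say whether counting used strand, so reads from such stretches could belong to either gene.

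Among the glycosidases, Hexa was the member with the smallest p. It encodes the alpha subunit of hexosaminidase A, which degrades GM2 ganglioside, and spans chr9:59539667-59565105 in mm10 on the plus strand. It had 688, 752 and 684 CPM in knockout libraries and 829, 783 and 767 CPM in control libraries, -0.16 on the log2 scale (SE 0.084, unadjusted p = 0.0680, adjusted p = 0.827 in edgeR's quasi-likelihood test). The 3 knockout libraries were the lowest of the 6, and the interval ran from 0.789-fold to 1.01-fold. Of its exon bases 9.71% are also exonic in Tmem202 on the opposite strand. Glb1, the lysosomal beta-galactosidase, had 69.9, 76.8 and 67.3 CPM in knockout and 77.6, 71.7 and 72.4 CPM in control libraries (-0.052, adjusted p = 0.972). Naglu, which removes N-acetylglucosamine from heparan sulfate, had 87.9, 96.2 and 92.6 CPM in knockout and 104, 88.0 and 91.8 CPM in control libraries (-0.036, adjusted p = 0.986). The log2 fold changes of Gusb, Gla and Gaa, which encode beta-glucuronidase, alpha-galactosidase A and acid alpha-glucosidase, were 0.026, -0.013 and 0.011. Gla was the steadiest member, with a coefficient of variation within groups of 1.52%, where the members' median was 6.70% and Tfeb had the highest at 17.3%.

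For lipid breakdown, Lipa, the acid lipase that frees cholesterol and fatty acids, had 1628, 1648 and 1548 CPM in knockout and 1679, 1456 and 1543 CPM in control libraries (0.045, adjusted p = 0.976). Psap had 16399, 18189 and 16505 CPM in knockout and 19179, 14884 and 16483 CPM in control libraries (0.016, adjusted p = 0.992). The control libraries of Psap spread wider than the knockout libraries and enclosed them. Asah1, the acid ceramidase, had 297, 369.7 and 349 CPM in knockout and 342, 332 and 359 CPM in control libraries (-0.024, adjusted p = 0.991). Grn, whose product progranulin is cut into granulins in the lysosome, had a log2 fold change of -0.0084.

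The 7 membrane protein genes had 5 log2 fold changes above 0 and 2 below, with a median of 0.0030. Cd63, a tetraspanin of late endosomes and lysosomes, had 388, 464 and 425 CPM in knockout libraries and 391, 368 and 384 CPM in control libraries (0.16, SE 0.088, adjusted p = 0.838). Knockout libraries 2 and 3 lay above each control library, and knockout library 1 lay between control libraries. GENCODE M21 names 1 pseudogene of Cd63, with which it could share reads. Lamp2, whose products include the receptor of chaperone-mediated autophagy, had 655, 835 and 779 CPM in knockout and 642, 649 and 743 CPM in control libraries (0.16, SE 0.10, adjusted p = 0.865). Laptm5, a lysosomal protein of blood cells, had 522, 471 and 418 CPM in knockout and 489.8, 415 and 404 CPM in control libraries (0.11, adjusted p = 0.917).

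Lamp1, the most abundant membrane gene per length, had 1728, 1978 and 1741 CPM in knockout and 1809, 1771 and 1856 CPM in control libraries (0.0028, adjusted p = 0.999). The macrophage marker Cd68 (-0.0094), the receptor Scarb2 that carries glucocerebrosidase to lysosomes (0.0030) and the calcium channel gene Mcoln1 (-0.044) also lay near 0. Of the transcription factor genes, Tfe3 had 55.8, 53.4 and 49.0 CPM in knockout libraries and 43.8, 49.9 and 49.0 CPM in control libraries (0.15, SE 0.098, adjusted p = 0.873), with knockout library 3 inside the control range. Mitf had 267, 267 and 290.5 CPM in knockout and 248, 287 and 301 CPM in control libraries (-0.019, adjusted p = 0.992). The 7 members whose promoter window holds the 8-base E-box had log2 fold changes from -0.057 to 0.042, with a median of -0.013. The 6 members with only the 6-base E-box ranged from -0.097 to 0.15, with a median of -0.016. The 19 members with a window but no E-box had a median of -0.0084, from -0.17 to 0.16.

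Hydrolase genes were high or low together in a library, and 1 library of each genotype stood high. Each gene's log2 CPM was compared with its own mean over the 6 libraries. In knockout library 2, 17 of the 17 hydrolase and cofactor genes lay above their mean, and in control library 1 it was 16 of 17, while the other libraries had 3 and 4 in knockout libraries 1 and 3 and 4 and 7 in control libraries 2 and 3. The median deviation of the 17 genes was -0.069, 0.045 and -0.031 in knockout libraries 1 to 3, and 0.10, -0.072 and -0.0032 in control libraries 1 to 3. For the 7 membrane protein genes the same medians were -0.052, 0.13 and -0.057 in knockout libraries, and -0.0025, -0.078 and -0.0049 in control libraries. Of these 7 genes, 6 lay above their mean in knockout library 2, as for the hydrolases, but only 3 in control library 1. For the V-ATPase the medians were 0.029, 0.025 and -0.013 in knockout libraries, and 0.0073, -0.00063 and -0.033 in control libraries. The V-ATPase median minus the hydrolase median was 0.099, -0.021 and 0.018 in knockout libraries, against -0.096, 0.071 and -0.030 in control libraries. The ranges overlapped, with the highest value in a knockout library and the lowest in a control library. Over all 10551 genes the share above their mean was 50.1% to 51.5% in each library. Over the 2292 genes of all functions in the level range of the hydrolases it was 42.3%, 54.3% and 50.4% in knockout libraries 1 to 3, and 54.4%, 48.4% and 53.8% in control libraries 1 to 3. Over the 136 genes of all functions at 1000 CPM or more, 33.8%, 61.8% and 49.3% lay above their mean in knockout libraries 1 to 3, and 64.7%, 33.8% and 63.2% in control libraries 1 to 3. The most abundant genes were thus also high in knockout library 2 and control library 1, less so over the wider level range. They were high in control library 3 as well (63.2%), where only 7 of the 17 hydrolase and cofactor genes lay above their mean. The role of the most abundant genes in the hydrolase pattern was not tested.

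**Figure D4:**
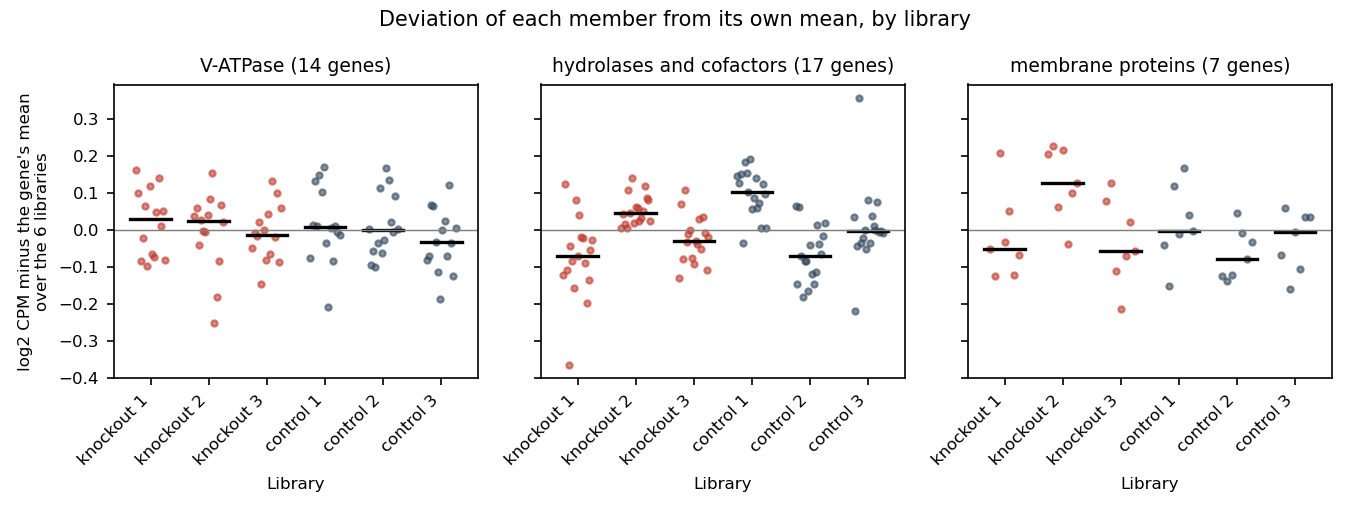
Deviation of each member from its own mean over the 6 libraries (log2 CPM, vertical axis), by library, for the V-ATPase, the hydrolases and cofactors and the membrane proteins, with the median of each library as a black line. The hydrolase medians are highest in control library 1 (0.10) and knockout library 2 (0.045), so that 1 library of each genotype stands high.

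A wider set, of lysosomal genes and of genes for sorting, inhibition, control and autophagy, gave the same count. Of 183 further genes in 8 lists, 160 were measured. In edgeR over all genes 0 of the 160 passed, where 11 of all genes (0.104%) did. An unadjusted p below 0.05 was reached by 9 (5.62%), compared with 6.48% over the table. Their median log2 fold change was -0.00082. Among 15 measured partners and assembly factors of the V-ATPase, the assembly factor gene Ccdc115 had 16.6, 16.9 and 14.0 CPM in knockout and 20.5, 20.4 and 18.9 CPM in control libraries (-0.34, adjusted p = 0.627), and Rnasek stood at 0.33 (adjusted p = 0.677). Among 40 other hydrolases, Arsb, the arylsulfatase that acts on dermatan sulfate, had 20.6, 23.4 and 20.6 CPM in knockout and 18.1, 14.6 and 16.6 CPM in control libraries (0.39, SE 0.13, adjusted p = 0.503). Gm2a, whose product presents GM2 ganglioside to hexosaminidase A, had 558, 573 and 529 CPM in knockout and 486, 454 and 501 CPM in control libraries (0.20, SE 0.084, adjusted p = 0.677). Each knockout library lay above each control library for Gm2a, the opposite order to Hexa, and neither gene passed.

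The smallest adjusted p of the 160 genes was that of Rab7, a GTPase of late endosomes, with 305, 273 and 291 CPM in knockout and 239, 232 and 243 CPM in control libraries, 0.28 on the log2 scale (SE 0.084, adjusted p = 0.414). Rab7 came from 22 measured autophagy genes, whose median was 0.0075 and whose next gene was Atg3 (0.20, adjusted p = 0.834). Among 22 genes that control TFEB and mTORC1 at the lysosome (median 0.048), Rragd, a Rag GTPase, stood at 0.40 (adjusted p = 0.627) and the calcineurin subunit gene Ppp3r1 0.28 (adjusted p = 0.627). Among 11 other proteases (median 0.0026), Ctsk stood at -0.23 (adjusted p = 0.749) and Cpq at 0.15 (adjusted p = 0.867). Of 32 other membrane proteins and transporters (median -0.029), Tmem175 had -0.32 (adjusted p = 0.746) and Tmem106b 0.19 (adjusted p = 0.822). The 14 genes of mannose 6-phosphate sorting (median -0.019) were led by Igf2r (-0.16, adjusted p = 0.861) and Nagpa (-0.20, adjusted p = 0.876), and the 4 protease inhibitors (median -0.028) by Serpinb6a (-0.12, adjusted p = 0.876) and Cstb (0.096, adjusted p = 0.924).

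Some genes used as markers of other cell types differed between the groups, while the lysosomal members did not pass. The cells that these transcripts came from were not tested. Among neutrophil and precursor markers 5 of the 11 measured rose and 0 fell, where 11 of all 10551 genes (0.104%) passed. Their summed level was 711 to 889 CPM in knockout libraries against 407 to 513 CPM in control libraries. Osteoclasts also hold high levels of the V-ATPase. Of 7 measured osteoclast markers 0 passed, and their sum was 1197 to 1283 CPM in knockout and 916 to 1262 CPM in control libraries, with 5 log2 fold changes above 0 and 2 below. An unadjusted p below 0.05 was reached by 4 of the 7, where 6.48% of all genes reached it. These 4 pointed both ways, with Itgb3 at 0.60 (adjusted p = 0.362), Mmp9 at 0.31 (adjusted p = 0.672) and Nfatc1 at 0.31 (adjusted p = 0.673) above 0 and Ctsk at -0.23 (adjusted p = 0.749) below. Of 12 macrophage markers 1 fell, Lyz2, and 0 rose, with a sum of 14850 to 17279 CPM in knockout and 24407 to 27192 CPM in control libraries. Lyz2 carried most of that gap: the other 11 markers summed to 6789, 7817 and 7429.7 CPM in knockout libraries, against 8139.5, 7754 and 8422 CPM in control libraries, and the groups overlapped. Of the 12 markers, 5 were lower at an unadjusted p below 0.05 (Lyz2, C1qa, C1qb, C1qc and Fcgr1), where 6.48% of all genes passed in either direction. With Adgre1, 6 were lower in each knockout library than in each control library, where 11.2% of all genes showed no overlap. Of 5 stromal markers 2 rose and 0 fell, with sums of 581 to 733 CPM in knockout and 636 to 798 CPM in control libraries. Of 5 mast cell and basophil markers (18.8 to 27.2 CPM in knockout, 14.3 to 18.5 CPM in control libraries) and 3 dendritic cell markers (316 to 324 CPM in knockout, 211 to 304 CPM in control libraries), 0 passed. The osteoclast markers Calcr, Ocstamp and Oscar and the neutrophil markers Ctsg, Retnlg and Ly6g were not analysed here. In bulk RNA, a change in the number of cells and a change in RNA per cell cannot be told apart, and the part of these other cells in the lysosomal levels was not tested.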

How the data were processed

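Per the labels' protocols, the 6 RNA libraries were read with an Ion Proton. The deposited table holds raw counts of reads per gene, which the authors had not normalized, with exon coordinates and summed exon length in bases per the file headers. Per the submitters' processing notes, STAR 2.4.2a, featureCounts, Subread 1.5.0, edgeR and build mm10 were used. The sources used here give neither the annotation nor the use of strand. In each gene at least 3 libraries exceeded 1 CPM, and 0 genes were removed by filterByExpr with a minimum count of 10.

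Knockout was compared with control over all 10551 genes by edgeR 4.0.16 (R 4.3.3) with its two-sided quasi-likelihood test, on TMM-scaled counts with genotype as the only term and Benjamini-Hochberg adjustment. The SE was taken as the size of the log2 fold change over the root of F. The members and lists were chosen with earlier results of these data known, and members, role lists and motifs are described by counts and medians without a test. Values in each library are given for the 3 members of each role group with the smallest p and for the one with the highest level per length. Of each wider list the 2 genes with the smallest p are named. Atp6v0d1, Tcirg1, Csf1r, Adgre1, Itgb3, Mmp9, Nfatc1, C1qa, C1qb, C1qc and Fcgr1 were named after their values had been seen. The alternatives comprised other size factors and filters, a block by replicate number, DESeq2 1.42.0, limma-voom (limma 3.58.1), a threshold of 0.1, Lyz2 left out and each library left out. Promoters are RefSeq's (GRCm38.p6), and exon overlaps come from GENCODE M21.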

Additional observations from a re-analysis of the deposited data

How the results depend on the processing

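The count of members called stayed at 0 in each of the 15 alternatives, including an adjusted p under 0.1, and the smallest adjusted p of any member in any of them was 0.359 (Ctsl, without control library 1). The count at an unadjusted p under 0.05 in edgeR did not stay at 0. Cd63 passed without size factors and Ctsl without control library 1. Cd63 and Lamp2 passed without knockout library 1, and Hexa without knockout library 2. Over all genes DESeq2 called 22 and edgeR 7 with Lyz2 left out, against 11. With 1 library left out edgeR called 4 (without control library 2) to 19 (without control library 1). Without size factors the V-ATPase median moved to 0.034, while the median of all genes moved to 0.019. With 1 library left out the V-ATPase median ranged from 0.0072 to 0.025, the hydrolase median from -0.084 to 0.019 and the membrane protein median from -0.035 to 0.091. Of the 24 members named by p or level, 8 that did not pass changed sign: Mitf, which was 0.0035 without size factors, and, with 1 library left out, Mitf (-0.097 to 0.039), Naglu (-0.081 to 0.037), Asah1 (-0.092 to 0.066), Psap (-0.062 to 0.12), Lamp1 (-0.063 to 0.042), Atp6v1e1 (-0.023 to 0.065), Atp6v0a1 (-0.099 to 0.0081) and Tfeb (-0.30 to 0.018). The cause was not tested. With 1 library left out Hexa ranged from -0.21 to -0.13, Ctsc from -0.26 to -0.017, Laptm5 from 0.032 to 0.20 and Lamp2 from 0.080 to 0.26. The Atp6v0d2 share kept its direction, with differences from 0.500 to 1.36 percentage points with 1 library left out.

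Deviations of same-numbered knockout and control libraries correlated at 0.139, 0.0195 and 0.148, and those of unlike-numbered libraries at -0.181 to 0.0548. Numbers 1 and 3 thus gave the highest of these correlations. The main test did not pair libraries by number, and a block by number was fitted as an alternative. With the replicate number as a block 35 of all genes were called, against 11, and 0 members. Under the block Hexa had an adjusted p = 0.626 and the Atp6v0d2 share differed by 0.888 percentage points. The block changed no call of a member. Depth limits Tfeb most, at 58 to 89 counts a library.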
